A study of Mus musculus with 6 samples.

Results

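The transcription factors of epithelial-to-mesenchymal transition (EMT) and of mesenchyme were described as a set of 10 genes: Snai1, Snai2, Twist1, Twist2, Zeb1, Zeb2, Prrx1, Prrx2, Foxc1 and Foxc2. They were chosen by gene symbol from the bulk RNA-seq count tables of mouse embryonic stem cells (mESCs) and cardiac precursor cell cultures (CPCCs). All 10 were found among the 16279 genes listed in either table. The mESCs were male F1 cells of a C57BL/6J mother and a CAST/EiJ father, derived from 3 blastocysts and grown in 2i medium with LIF, which keeps them in the naive pluripotent state. The CPCCs were made from mESCs of the same 3 origins through embryoid bodies in medium with ascorbic acid, then plated on gelatin with EGF and Fgf2 and passaged before RNA was taken. They were unsorted, heterogeneous cultures, and each mESC line was a clone. Each group had 3 libraries, which the tables call S01 to S03 for mESCs and S04 to S06 for CPCCs. The study's methods give them as 3 biological replicates.

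In EMT, cells that are held together as a sheet lose their junctions and become motile mesenchyme, as happens at gastrulation, in the neural crest and in the endocardial cushions and epicardium of the heart. SNAIL (Snai1, Snai2) and ZEB (Zeb1, Zeb2) proteins are zinc finger repressors that bind E-box sequences in the promoters of epithelial genes such as Cdh1, which encodes E-cadherin. TWIST proteins are basic helix-loop-helix (bHLH) factors that pair with E proteins, PRRX proteins are paired-related homeobox factors of limb and craniofacial mesenchyme, and FOXC proteins are forkhead factors of mesoderm, neural crest and vessels.

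All 10 genes had more RNA in CPCCs than in mESCs, in every library of one group against every library of the other or, for the 5 genes that the mESC table does not list, against a floor of 3 counts per mESC library. Of the 12471 genes tested, all of them listed in both tables, 35.3% had every CPCC library above every mESC library. That share can be set only beside the 5 factors listed in both tables, not beside all 10. For the 5 others the mESC side is a set floor and not a measured value, and 15.5% of genes in either table are likewise listed for CPCCs only. Zeb1 was already well expressed in mESCs, and the other 9 had at most 16 counts in any mESC library or were not listed there. In bulk RNA, more cells that express a gene and more RNA of that gene per cell cannot be told apart.

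The promoters of the factors and of their epithelial targets are shown first, since the E-box CAGGTG is the sequence that SNAIL and ZEB proteins are known to bind. The 250 bases before the start site were searched for CAGGTG on both strands (CACCTG is its reverse complement) in RefSeq promoters on GRCm38.p6, the build of the tables. The motif was in the window of 5252 of 27025 genes with a promoter, or 19.4%. Promoters were found for 7 of the 10 factors, and only that of Snai1 held the motif, 126 bases before the start site. It is given 5′ to 3′ and ends at the last base before the start, with the motif in capitals:
Snai1 (chr2:167537945-167538194, plus strand): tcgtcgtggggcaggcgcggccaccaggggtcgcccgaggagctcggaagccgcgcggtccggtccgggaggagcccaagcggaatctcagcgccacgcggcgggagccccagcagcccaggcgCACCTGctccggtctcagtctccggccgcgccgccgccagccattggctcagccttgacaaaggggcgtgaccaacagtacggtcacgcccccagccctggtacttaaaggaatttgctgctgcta

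Among 16 genes with a promoter from a list of 20 epithelial genes, 11 held the motif (68.8%), against 19.4% of all genes and none of 10 genes with a promoter from a list of 20 mesenchymal effectors. The motif was found in epithelial genes of either direction. All 5 of the epithelial genes that were higher in CPCCs and had a promoter held it, as did 1 of 3 that were lower and 4 of 7 that were not called. Of the 5, Cldn7 lost its call without S01, S03 or S06. The promoter of Cdh1 was not analysed here. Of 4 transcription factors that maintain epithelia and were lower, 2 held it. The following were chosen after their values were seen. The first set is from genes that were higher in CPCCs: the simple epithelial keratins Krt8 and Krt18, and Lsr, a receptor of tricellular junctions, which has 4 copies of the motif from 249 to 69 bases before its start:
Krt8 (chr15:102004343-102004592, minus strand): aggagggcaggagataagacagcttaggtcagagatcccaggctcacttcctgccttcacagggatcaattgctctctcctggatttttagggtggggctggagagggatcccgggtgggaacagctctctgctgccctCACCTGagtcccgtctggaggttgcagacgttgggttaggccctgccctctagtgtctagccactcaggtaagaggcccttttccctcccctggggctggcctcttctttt
Krt18 (chr15:102027966-102028215, plus strand): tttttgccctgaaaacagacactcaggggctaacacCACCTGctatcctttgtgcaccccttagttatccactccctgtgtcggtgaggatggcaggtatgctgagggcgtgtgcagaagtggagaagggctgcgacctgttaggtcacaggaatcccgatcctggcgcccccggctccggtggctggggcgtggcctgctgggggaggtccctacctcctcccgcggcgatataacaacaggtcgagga
Lsr (chr7:30973470-30973719, minus strand): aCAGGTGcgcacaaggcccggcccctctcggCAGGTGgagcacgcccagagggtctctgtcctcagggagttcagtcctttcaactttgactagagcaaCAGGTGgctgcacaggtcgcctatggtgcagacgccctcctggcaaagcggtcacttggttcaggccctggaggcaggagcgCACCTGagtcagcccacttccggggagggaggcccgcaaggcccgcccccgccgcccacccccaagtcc

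The second set is from genes that were lower in CPCCs: the tight junction claudin Cldn4, the ETS factor Elf3 and the grainyhead factor Grhl3. Their motifs lie 14, 140 and 19 bases before the start:
Cldn4 (chr5:134946935-134947184, minus strand): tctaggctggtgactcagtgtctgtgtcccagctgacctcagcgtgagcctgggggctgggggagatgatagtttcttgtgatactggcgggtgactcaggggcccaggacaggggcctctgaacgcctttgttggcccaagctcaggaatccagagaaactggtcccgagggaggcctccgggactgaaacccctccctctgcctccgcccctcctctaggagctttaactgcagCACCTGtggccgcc
Elf3 (chr1:135258473-135258722, minus strand): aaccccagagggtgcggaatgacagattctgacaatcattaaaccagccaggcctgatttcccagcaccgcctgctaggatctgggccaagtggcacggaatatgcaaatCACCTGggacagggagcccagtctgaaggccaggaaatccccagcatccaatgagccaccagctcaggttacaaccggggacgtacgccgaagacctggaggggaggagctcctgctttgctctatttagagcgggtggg
Grhl3 (chr4:135573633-135573882, minus strand): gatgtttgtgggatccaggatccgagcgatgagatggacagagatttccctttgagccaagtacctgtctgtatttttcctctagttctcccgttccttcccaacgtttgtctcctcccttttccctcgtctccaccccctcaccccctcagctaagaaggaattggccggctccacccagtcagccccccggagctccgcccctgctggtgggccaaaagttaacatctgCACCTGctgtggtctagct

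A match is a description of these letters and does not show binding.

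Depth was 6442639 to 6907330 counts per mESC library and 8468819 to 11436062 per CPCC library. Levels are given as CPM, the count scaled to a library of 1000000 counts, after TMM normalization, which scales libraries on the bulk of their genes. The tables hold genes with at least 10 counts over their 3 libraries, so a gene missing from one table has no value there. A floor of 3 counts per library, worth 0.434 to 0.466 CPM in mESCs before TMM normalization, was used to bound such genes. The bounds themselves used the floor after TMM normalization. Genes of both tables were tested with edgeR's quasi-likelihood test and called at a Benjamini-Hochberg adjusted p under 0.05 over 12471 genes. This test called 61.4% of the genes it tested with 31.7% higher and 29.7% lower in CPCCs.

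Of the SNAIL genes, Snai1 (chr2:167538195-167542811) was at 0.309, 0.441 and 0.731 CPM in mESC libraries S01 to S03, which is 2, 3 and 5 counts. In CPCC libraries S04 to S06 it was at 21.5, 12.2 and 5.84 CPM. The groups did not overlap, and S04 was 3.67 times as high as S06, the widest spread of any of the 10 factors in CPCCs. The means were 0.494 ± 0.216 and 13.2 ± 7.86 CPM (SD, n = 3 each), and the log2 fold change was 4.69 with a standard error (SE) of 0.65 (edgeR, adjusted p = 0.000267). Snai2 (chr16:14705859-14709382), the factor also called Slug, was at 0.618, 0.588 and 1.90 CPM in S01 to S03 and at 34.6, 21.1 and 16.3 CPM in S04 to S06. Its groups did not overlap either, with the same order of the CPCC libraries. Its means were 1.04 ± 0.750 and 24.0 ± 9.50 CPM (SD, n = 3 each), and it rose by 4.51 on the log2 scale (SE 0.52, edgeR, adjusted p = 9.95e-05), or by 5.28 without S03. The third family member, Snai3, was picked out after its values were seen. It was at 2.23 ± 0.612 CPM in mESCs and 7.55 ± 2.97 CPM in CPCCs (SD, n = 3 each), a log2 fold change of 1.75 (SE 0.48, edgeR, adjusted p = 0.0112).

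Of the TWIST genes, neither Twist1 (chr12:33957671-33959831) nor Twist2 (chr1:91801461-91848034) was in the mESC table. Of all genes in either table, 15.5% are listed in the CPCC table only, as are 5 of these 10. Twist1 was at 11.3, 10.1 and 5.50 CPM in S04 to S06, from 114, 83 and 48 counts. Its mean of 8.97 ± 3.07 CPM (SD, n = 3) was at least 20.02-fold higher than the mESC floor. Twist2 was at 7.46, 7.52 and 5.73 CPM, or 6.90 ± 1.01 (SD, n = 3), at least 15.4-fold higher than the floor. Its CPCC libraries differed by 1.31 times from highest to lowest, the smallest such ratio among the 10. TWIST proteins bind DNA with E proteins and are held back by ID proteins, which take up the E proteins. In a list of 9 bHLH partners all 7 tested genes were called higher in CPCCs, beside 31.7% of all genes tested. The number called was 5 without S01, S02, S05 or S06, when Tcf3 and Id4 lost their calls. The E protein gene Tcf12 rose by 2.16 (SE 0.18, edgeR, adjusted p = 1.77e-05), Id3 by 4.60 (SE 0.25, adjusted p = 2.32e-06) and Id1 by 3.35 (SE 0.22, adjusted p = 5.10e-06) on the log2 scale. The partner and both inhibitor genes named were thus higher in the cultures in which Twist1 and Twist2 were listed. Hand2 and Hand1, bHLH factors of heart mesoderm, are listed only in the CPCC table and had means at least 7.29-fold and 3.35-fold higher than the floor. Without S04 the bound of Hand2 was 3.39-fold, and Hand1 was under the mESC floor in S05, at 0.364 CPM.

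The ZEB genes differed in their starting level. Zeb1 was at 64.6, 78.7 and 70.3 CPM in S01 to S03 and at 94.1, 126.2 and 111.6 CPM in S04 to S06. The groups did not overlap, but its change was the smallest among the 5 factors tested, a log2 fold change of 0.64 (SE 0.18, edgeR, adjusted p = 0.0125), from 71.2 ± 7.10 to 110.7 ± 16.1 CPM (SD, n = 3 each). This call was lost without S01 (adjusted p = 0.0630), without S05 (adjusted p = 0.0557) and when a change of at least 2-fold was required, a rule that called 25.5% of genes higher. Of all genes tested, 34.9% had a larger log2 fold change than Zeb1. Zeb2 (chr2:44983512-45117442) is absent from the mESC table. It was at 90.8, 46.9 and 55.8 CPM in S04 to S06, with S04 apart from the other two. Its mean of 64.5 ± 23.2 CPM (SD, n = 3) was at least 144-fold higher than the floor, the largest of the 5 bounds. Zeb2 is overlapped by the antisense gene Zeb2os, which is also listed only in the CPCC table, at 2.73, 6.79 and 2.90 CPM. Whether counting used the strand is not given in the sources used here, so reads in the overlap cannot be told apart, and the counts of both genes are not whole numbers.

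**Figure D1:**
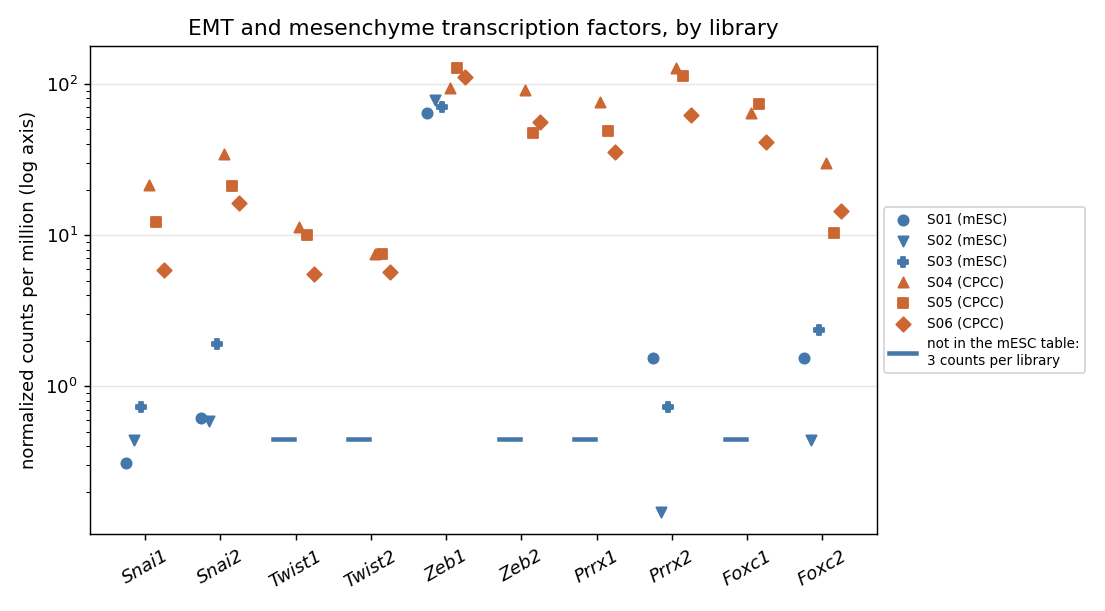
Normalized CPM (log axis) of the 10 factors in each of the 6 libraries, with mESC libraries in blue and CPCC libraries in orange. Blue bars mark the mean floor of 3 counts per mESC library, before TMM normalization, for the 5 genes that the mESC table does not list. Zeb1 is the one factor above 10 CPM in mESCs, and in every factor the CPCC points lie above the mESC points or the floor.

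Of the PRRX genes, Prrx1 (chr1:163245119-163313650) is listed only in the CPCC table, at 75.6, 48.6 and 35.6 CPM in S04 to S06. The mean was 53.3 ± 20.4 CPM (SD, n = 3), at least 119-fold higher than the floor. Prrx2 (chr2:30845367-30881247) was at 1.54, 0.147 and 0.731 CPM in S01 to S03, where S02 held 1 count, and at 126.9, 112.8 and 62.0 CPM in S04 to S06. The groups did not overlap. From 0.808 ± 0.702 to 100.6 ± 34.1 CPM (SD, n = 3 each), it had the largest change among the factors tested, a log2 fold change of 6.95 (SE 0.53, edgeR, adjusted p = 1.00e-05), or 7.79 without S01. Only 0.401% of all genes tested had a larger one.

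Of the FOXC genes, Foxc1 (chr13:31806646-31810635) is listed only in the CPCC table, at 64.2, 74.0 and 41.5 CPM in S04 to S06. The mean was 59.9 ± 16.7 CPM (SD, n = 3), at least 133.7-fold higher than the floor. Foxc2 (chr8:121116171-121118894) was at 1.54, 0.441 and 2.34 CPM in S01 to S03 and at 29.8, 10.3 and 14.4 CPM in S04 to S06. The groups did not overlap, with S04 at 2.89 times the level of S05. The means were 1.44 ± 0.954 and 18.2 ± 10.3 CPM (SD, n = 3 each), and the log2 fold change was 3.65 (SE 0.61, edgeR, adjusted p = 0.000799), larger than all but 4.90% of genes tested.

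**Figure D2:**
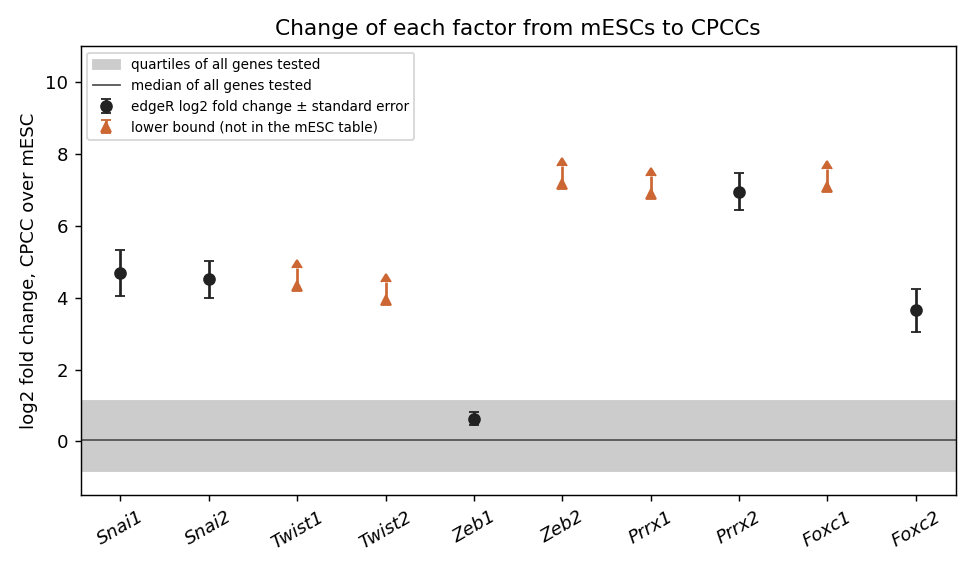
Log2 fold change of each factor, CPCC over mESC. Black points are edgeR estimates with their standard error, orange triangles with arrows are lower bounds for genes that the mESC table does not list, and the grey band spans the quartiles of all 12471 genes tested, with a line at their median of 0.03. Zeb1 lies within the band at 0.64, and the other 4 tested factors lie from 3.65 to 6.95.

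All 5 factors that could be tested were called higher, beside 31.7% of all genes tested. Snai1, Snai2, Prrx2 and Foxc2 passed the filter on low counts through their CPCC values, so their being tested already required a difference. With 3 libraries against 3, an exact permutation test on a single gene (two-sided) gave p = 0.1 for each of the 5, the smallest it allows. When genes missing from the mESC table were entered at 3 counts per library, Twist1, Twist2, Zeb2, Prrx1 and Foxc1 had log2 fold changes of 4.21, 3.83, 7.06, 6.78 and 6.94. All 5 were called (edgeR, largest adjusted p = 0.000148 for Twist1), beside 34.8% of genes called higher in that fit, but a constant value gives mESCs no spread.

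The order of the factors within CPCCs was read per kb of exon, since longer transcripts give more counts at the same number of molecules. Lengths are those of exons in GENCODE transcripts paired with a RefSeq mRNA. Prrx2 stood first at 89.1 ± 30.2 CPM per kb (SD, n = 3), and its lowest library, at 54.9, was above the highest of Zeb1, at 21.8. Zeb1 came next at 19.1 ± 2.77 CPM per kb, followed by Foxc1 at 15.0 ± 4.18, Snai2 at 11.9 ± 4.72 and Zeb2 at 11.2 ± 4.03. Snai1 (8.15 ± 4.86), Foxc2 (6.68 ± 3.78), Twist1 (5.51 ± 1.88), Prrx1 (5.45 ± 2.09) and Twist2 (5.19 ± 0.764) closed the order. Below Prrx2, each pair of neighbours overlapped in range. Read within each library, Zeb1 was above Foxc1 and Zeb2 above Snai1 in all 3, while the other neighbours changed order between libraries. In mESCs Zeb1 was at 12.3 ± 1.22 CPM per kb, and the other 4 factors listed there were at 0.715 or less. With the exons of all annotated transcripts, an alternative chosen after seeing the data, the CPCC levels of Zeb1, Zeb2 and Twist2 dropped to 10.8, 3.23 and 2.17 CPM per kb, with the mean of Zeb1 then below that of Foxc1 and Zeb2 below Snai1, while Prrx2 stayed first at 73.5.

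**Figure D3:**
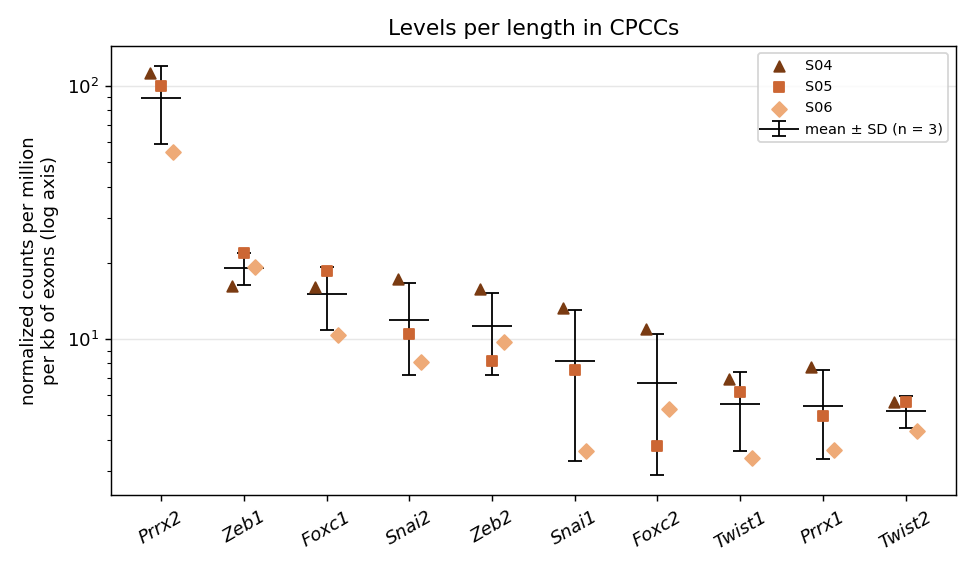
Normalized CPM per kb of exon (log axis) of the 10 factors in CPCCs, ordered by their mean. Points are libraries S04, S05 and S06, and bars are the mean ± SD. Prrx2 lies apart at 54.9 or more in each library, and the ranges of the other neighbours overlap.

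The genes whose profile over the 6 libraries was most like that of each tested factor were found by the root mean square (RMS) difference of log2 CPM, each gene centred on its own mean. For Snai1 the nearest was Ctgf, a matricellular protein gene, at an RMS difference of 0.22, with Akr1b8 and Golim4 next. Ctgf was at 1990, 1188 and 751 CPM in S04 to S06, in the order of Snai1. For Snai2 the nearest were Ptprd, Plod2 and Lipa, from 0.18 to 0.21. Zeb1 had the closest neighbours, Skiv2l, Pofut1 and Pla2g15, at 0.05 to 0.08. For Prrx2 they were Arhgef28, Antxr1 and Runx1, from 0.31 to 0.32, and for Foxc2 they were Mum1l1, Zxda and Cpeb2, all at 0.34. These are descriptions over 6 libraries of 2 groups.

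The balance within each family was followed by the share of the first paralog in the summed level per kb of the pair. Prrx1 made up 6.43%, 4.74% and 6.22% of the PRRX pair in S04 to S06, so Prrx2 was the main PRRX transcript in every library. The size of this share rests largely on the exon lengths taken, 9787 bases for Prrx1 and 1129 for Prrx2. Without division by length, the CPCC means were 53.3 CPM for Prrx1 and 100.6 for Prrx2, and Prrx2 was still higher in each library. Zeb1 made up 50.7%, 72.7% and 66.5% of the ZEB pair, and Foxc1 59.5%, 83.0% and 66.2% of the FOXC pair, always above its paralog. Snai1 was the smaller part of its pair in each library, with 43.5%, 41.9% and 30.9%. The TWIST pair had no constant order, with Twist1 at 55.4%, 52.2% and 43.9%, and these shares depend on the shorter exon length taken for Twist2. In both the ZEB and the FOXC pair, the share of the first paralog was lowest in S04, where Zeb2 and Foxc2 were at their highest.

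The CPCC libraries differed among themselves. S04 was the highest of the 3 for 7 of the 10 factors, beside 39.7% of the 13966 genes with a mean of at least 1 CPM in CPCCs. S06 was the lowest for 7 of the 10, beside 35.3% of those genes. The exceptions were Zeb1, lowest in S04, and Zeb2 and Foxc2, lowest in S05. The median coefficient of variation was 35.1% over the factors and 24.0% over all those genes. Other gene lists moved with this order. Summed over their lists, mesenchymal effectors were at 47328, 39955 and 28182 CPM in S04 to S06, in the order of Snai1 and Snai2. Pluripotency markers ran the other way, at 168.7, 259.9 and 330.7 CPM, and epithelial genes were highest in S06, at 932, 845 and 1458 CPM. Cardiac markers were at 521.7, 160.0 and 167.0 CPM and stromal fibroblast markers at 496, 767 and 398 CPM, so neither shared the order of the SNAIL genes. The part of these marker differences in the values of the factors was not tested.

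**Figure D4:**
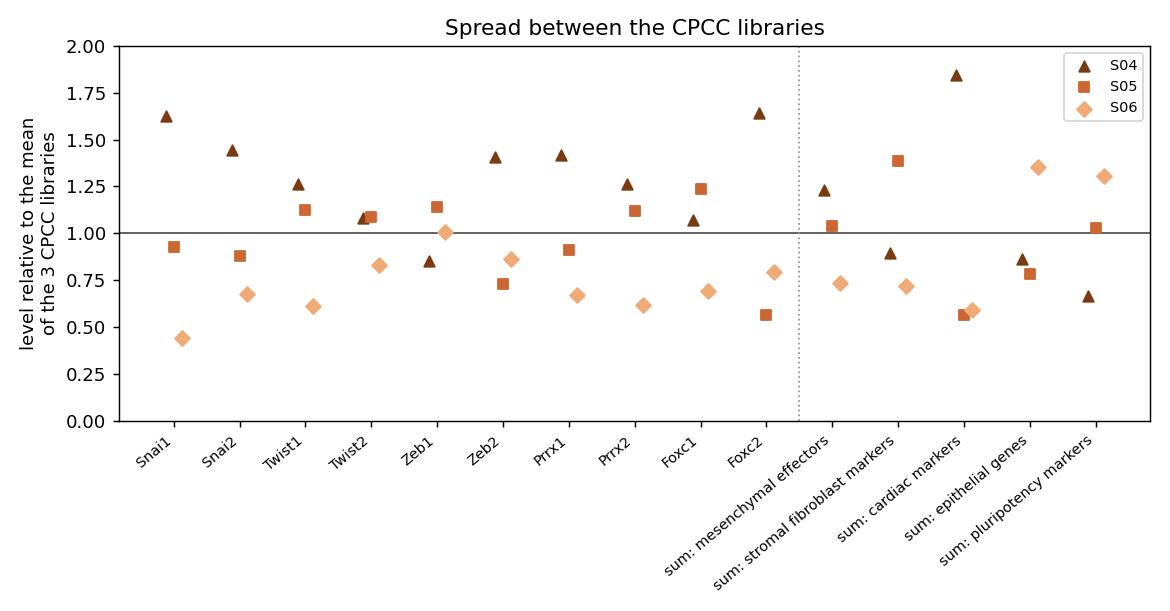
Level of each factor and summed level of 5 gene lists in CPCC libraries S04, S05 and S06, relative to the mean of the 3 libraries (line at 1). S04 is highest for 7 of the 10 factors and S06 lowest for 7, while the summed epithelial genes and pluripotency markers are highest in S06.

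Markers of the labelled cell types were read beside these values. For the counts below, 31.7% of all genes tested were called higher and 29.7% lower. The share listed in the CPCC table only was 15.5% of genes in either table. All 10 pluripotency markers were called lower in CPCCs, from summed levels of 4819 to 5296 CPM in mESCs. Cardiac markers summed to 160.0 to 521.7 CPM in CPCCs and 8.81 to 13.6 in mESCs, but of 13 only 2 of 5 tested were called higher. Of the rest, 6 are listed in the CPCC table only, Tbx5 in the mESC table only and Mesp1 in neither. Mesenchyme also forms from other sources, whose markers gave mixed values. Of 9 stromal fibroblast markers, 4 of 5 tested were called higher and the other 4 are listed only in the CPCC table, with sums of 398 to 767 CPM in CPCCs and 19.0 to 26.6 in mESCs. Of 10 neural crest markers, 3 of 4 tested were called lower and 5 are listed only in the CPCC table, with Pax7 in neither, and the sums were 125.3 to 186.2 CPM in CPCCs and 27.5 to 29.0 in mESCs. Of 8 paraxial mesoderm markers, 5 were in neither table (Tbx6, Msgn1, Hes7, Meox1 and Ripply2), and the sums were 1.59 to 12.1 CPM in CPCCs and 11.1 to 15.9 in mESCs. Endothelial markers summed to 16.0 to 33.3 CPM in CPCCs and 93.3 to 102.5 in mESCs. Most of the mESC sum was Pecam1, at 93.0, 94.3 and 86.0 CPM in S01 to S03. Of 2 tested, 1 was called lower (Pecam1, a log2 fold change of -4.35). Another 4 (Cdh5, Kdr, Emcn and Esam) are listed only in the CPCC table, Erg only in the mESC table, and Tie1 and Cldn5 in neither. Neural markers were at 587 to 647 CPM in CPCCs and 43.7 to 47.8 in mESCs, and all 5 tested were called higher. Endoderm markers were at 55.7 to 88.4 CPM in CPCCs, and 1.85 to 8.04 in mESCs, and all 3 tested were called higher, with Afp, Ttr and Apoa1 in neither table. The share of each source in the levels of the 10 factors was not tested.

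Genes that EMT factors are known to act on were read next. Of 20 mesenchymal effectors, all 14 tested were called higher, beside 31.7% of all genes tested. Their median log2 fold change was 6.34, beside 0.03 over all genes tested. The other 6 are listed only in the CPCC table, beside 15.5% of genes in either table. The collagen gene Col1a1 rose by 12.40 (SE 0.40, edgeR, adjusted p = 7.86e-07) and the smooth muscle actin gene Acta2 by 12.31 (SE 0.46, adjusted p = 9.64e-07) on the log2 scale. Col5a2 rose by 10.22 (SE 0.67, edgeR, adjusted p = 5.10e-06), or by 13.09 without S03. In mESCs these genes were near the floor, with means of 0.554 CPM for Col1a1, 0.896 for Acta2 and 0.634 for Col5a2. They passed the filter on low counts through their CPCC values, so their being tested already required a difference. Tagln, Thbs1 and Col1a2 are not in the mESC table and were at least 8176-, 5614- and 5302-fold higher than its floor. For Thbs1 the bound was 3331-fold without S04.

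Of 20 epithelial genes, 18 were tested, 6 were called higher, 4 lower and 8 neither way, with a median log2 fold change of -0.16. These counts are near the shares over all genes tested, of which 31.7% were called higher and 29.7% lower, so they show nothing particular to the list. Of the 6 called higher, Cldn7 (edgeR, adjusted p = 0.0253) lost its call without S01, S03 or S06 (adjusted p = 0.0816, 0.0917 and 0.133). Cdh1, the classical target of SNAIL and ZEB repression, was picked out for that role and fell by 2.35 on the log2 scale (SE 0.45, edgeR, adjusted p = 0.00168), from 434 ± 136 to 85.4 ± 59.7 CPM (SD, n = 3 each). Without S06 its log2 fold change was -3.08. The keratins went the other way. Krt18 rose by 6.63 (SE 0.37, edgeR, adjusted p = 2.44e-06), Krt8 by 5.91 (SE 0.31, adjusted p = 2.10e-06) and Krt19 by 3.59 (SE 0.66, adjusted p = 0.00137), or by 5.07 without S03. Krt8 and Krt18 have processed pseudogene copies that can share their reads. Marveld3, a tight junction gene, is listed only in the CPCC table, at 2.20 ± 1.07 CPM (SD, n = 3), at least 4.92-fold higher than the floor.

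Regulators that hold the epithelial state were read as a list of transcription factors and splicing regulators. Of 12, 8 were tested, 4 were called lower and 4 were not called, with a median log2 fold change of -1.89. Over all genes tested, 29.7% were called lower. Elf3 fell by 5.39 (SE 0.50, edgeR, adjusted p = 2.81e-05), Grhl3 fell by 3.16 (SE 0.28, adjusted p = 2.35e-05) and Klf4, which is also a naive pluripotency factor, fell by 2.94 (SE 0.27, adjusted p = 2.56e-05). The fourth, Ovol2, a repressor of Zeb1, was near the floor in CPCCs (0.470 ± 0.418 CPM, SD, n = 3). It was picked out after its values were seen, since its call (edgeR, adjusted p = 0.0459) was lost without S01, S02, S03, S04 or S05 (adjusted p = 0.0697 to 0.118), which left 3 called. Ehf is listed only in the mESC table and was at least 2.98-fold lower in CPCCs. Esrp1, an epithelial splicing regulator, is listed only in the CPCC table, at 2.78, 6.55 and 17.2 CPM in S04 to S06, with a mean at least 19.7-fold higher than the floor, or 10.4-fold without S06. It was highest in S06, the library with the lowest Snai1, Snai2, Twist1 and Twist2. Trp63 is listed there too, at 0.493 ± 0.376 CPM (SD, n = 3), near the floor.

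Signals that induce EMT factors were higher or not called. Of 19, 17 were tested, 12 were called higher and 5 were not called, with a median log2 fold change of 1.47. Over all genes tested, 31.7% were called higher. Among the tested genes, those with the largest rises encode ligands and a receptor of transforming growth factor beta. Tgfb2 rose by 8.73 (SE 0.50, edgeR, adjusted p = 2.86e-06), the receptor Tgfbr2 by 5.70 (SE 0.58, adjusted p = 4.75e-05) and Tgfb1 by 4.22 (SE 0.58, adjusted p = 0.000271) on the log2 scale. Without S03, Tgfb1 rose by 4.93. The other receptor gene, Tgfbr1, was below the list's median, at a log2 fold change of 1.00 (SE 0.25, edgeR, adjusted p = 0.00657). Tgfb3 and Sox9 are listed only in the CPCC table and were at least 184.8-fold and 52.9-fold higher than the floor.

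Corepressors that SNAIL and ZEB proteins recruit, with regulators of SNAIL stability, moved in both directions. All 18 were tested, 7 were called higher and 9 lower, with a median log2 fold change of -0.62. Over all genes tested, 31.7% were called higher and 29.7% lower. Hdac1, a histone deacetylase of these complexes, fell by 1.95 (SE 0.20, edgeR, adjusted p = 4.56e-05). The kinase Lats2, which stabilizes SNAIL1, rose by 3.54 (SE 0.44, edgeR, adjusted p = 0.000149), or by 2.92 without S04, and the histone methyltransferase Suv39h1 by 2.04 (SE 0.21, adjusted p = 5.16e-05).

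Other transcription factors of mesenchyme moved in both directions. Of 30, 11 were tested, 6 were called higher and 2 lower, with a median log2 fold change of 1.75. Over all genes tested, 31.7% were called higher and 29.7% lower. A further 15 are listed only in the CPCC table, beside 15.5% of genes in either table. Osr2 is listed only in the mESC table, and Tcf21, Meox1 and Pax1 in neither. Runx1, a runt factor, rose by 7.40 (SE 0.45, edgeR, adjusted p = 3.45e-06) and Tbx18, a factor of epicardium, by 4.19 (SE 0.45, adjusted p = 6.54e-05), while Tbx3, which is also expressed in naive mESCs, fell by 5.36 (SE 0.28, adjusted p = 1.88e-06). Without S01, Runx1 rose by 8.52. Pax3, Scx and Runx2 were at least 71.8-, 56.9- and 51.5-fold higher than the floor, and Pax3 47.1-fold without S06.

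**Figure D5:**
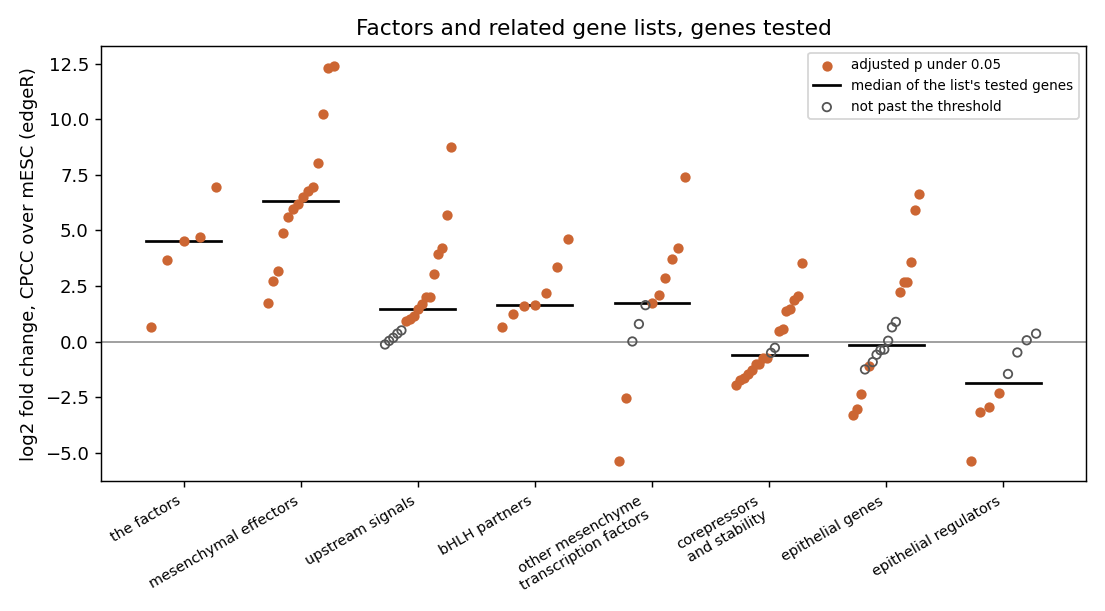
Log2 fold change, CPCC over mESC (edgeR), of the tested genes of each list, where each point is a gene, filled points have an adjusted p under 0.05 and horizontal lines are medians. The 5 tested factors and all 14 tested mesenchymal effectors lie above 0, while epithelial genes spread on both sides with a median of -0.16.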

How the data were processed

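Bulk RNA-seq of 3 mESC and 3 CPCC libraries was used. The authors made polyA+ cDNA libraries with the SMART-Seq v4 kit and sequenced them as paired ends, and their processing notes name STAR 2.7 and mm10. The deposited tables hold estimated counts per gene, not normalized, and 17.9% to 21.5% of values per library are not whole. The counting tool is not given in the sources used here. Columns were assigned to a group by the table that holds them, since they carry no replicate number.

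Counts were rounded. The 13001 genes of both tables were filtered with filterByExpr (12471 left), normalized with TMM and tested with edgeR 4.0.16 (quasi-likelihood, no covariate, Benjamini-Hochberg over all genes tested), after a check on simulated data. CPM used TMM library sizes. P-values measure the spread between these libraries. Fold bounds set the mean CPM against 3 counts per library. Alternatives were DESeq2 1.42.0, other scalings, filters, thresholds and fills, and leaving out each library. Intervals for counting error were not computed. All 10 factors were named. Of each list, up to 3 called genes with the largest absolute log2 fold change were named, with up to 3 of the largest bounds, and up to 3 genes most like each tested factor. The 10 factors and the lists were chosen with earlier results of these data known. Promoter sequences are from RefSeq on GRCm38.p6, with coordinates counted from 1.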

Additional observations from a re-analysis of the deposited data

How the results depend on the processing

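The number of tested factors called was 5 in the main analysis. It was 1 of 1 tested when at least 10 counts were required in every library, and 10 of 10 when genes missing from a table were entered at 0 counts or at 3 counts per library. Under the same changes, the epithelial regulators called went from 4 to 2 with at least 10 counts and to 5, of which 1 was higher, with missing genes at 0 or at 3 counts, and the other mesenchyme transcription factors from 8 to 5 with at least 10 counts and to 17 with missing genes at 0 or at 3 counts. These changes come with the number of genes that can be tested. Among the factors tested, Zeb1 lost its call in the settings given above, while Snai1, Snai2, Prrx2 and Foxc2 stayed called in all 6 fits that left out a library, with log2 fold changes of up to 7.79 for Prrx2 and 5.28 for Snai2. The bHLH partners called went from 7 to 5 with missing genes at 3 counts and to 6 with library totals. The epithelial regulators called were also 3 with library totals and with no filter. Over all genes, 7656 were called, and from 5604 with a 2-fold threshold to 9011 with missing genes at 3 counts. Missing genes at 0 counts moved the median log2 fold change of all genes from 0.03 to 0.17. No direction reversed among the values recomputed. With each CPCC library left out in turn (added after seeing the data), the fold bounds ranged from 14.7 to 16.7 for Twist2 and from 114.7 to 163.7 for Zeb2. No paired analysis was possible because the columns of the tables carry no replicate number. Depth limits the 5 unlisted factors in mESCs to bounds, and the mESC levels of Snai1, Snai2, Prrx2 and Foxc2 rest on 1 to 16 counts per library.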
